A study of Mus musculus with 18 samples.

Results

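The genes described here lie beside *Cryaa* on mouse chromosome 17 and were followed in lenses in which *Cryaa* itself was edited. They are *Slc37a1*, *Pde9a*, *Wdr4*, *Pknox1*, *Cbs*, *U2af1*, *Sik1*, *Hsf2bp* and *Rrp1b*. They were taken by symbol from the table of gene counts, which held 40800 gene identifiers, and all 9 were found. Of these, 8 had enough counts to be tested among 13938 genes. The ninth, *Hsf2bp*, had 39 counts in all libraries together. The rule took them by name and position, with earlier results of these data known.

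RNA was sequenced from 18 pooled lens libraries, with 3 libraries in each of 6 groups. All mice were on a C57BL/6J background. One line carried the R49C mutation of *Cryaa*, which encodes αA-crystallin, and its lenses were taken at 2 days of age from WT, heterozygous (het) and homozygous (homo) mice. The other line carried the R120G mutation of *Cryab*, which encodes αB-crystallin and lies on chromosome 9, and its WT, het and homo lenses were taken at 14 days. Both mutations were knocked into the endogenous gene through stem cells, so no transgene promoter was involved. The strain of the stem cells is not given in the sources used here, so it is not known whether the DNA beside each edit differs from that of the WT mice. Each library combined lenses of several animals. Line and age cannot be told apart. The genotype field of 6 *Cryab* libraries names *Cryaa*-R49C, and the sample titles were used for those. P-values below measure the spread between pooled libraries.

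αA-crystallin and αB-crystallin are small heat shock proteins that make up much of the protein of the lens and keep other lens proteins in solution. A knock-in leaves the edited chromosome segment in the mouse, and with it the DNA that flanked the edited gene in the stem cells, so genes beside the locus are inherited together with the edit. A line edited at another locus serves as a comparison. The neighbours of *Cryaa* have no common function: they cover sugar phosphate transport, cyclic GMP breakdown, tRNA methylation, transcription, sulfur amino acid metabolism, splicing, signalling, meiosis and ribosome assembly.

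On the GRCm38 assembly, *Cryaa* lies on the plus strand of chromosome 17 from 31677807 to 31681733. *U2af1* (31647081 to 31658892, minus strand) lies 18.9 kb before it, followed outward by *Cbs* (31608894 to 31637238, minus strand) at 40.6 kb and *Pknox1* (31564734 to 31607693, plus strand) at 70.1 kb. *Wdr4* (31494322 to 31519980, minus strand), *Pde9a* (31386210 to 31476310, plus strand) and *Slc37a1* (31286792 to 31350739, plus strand) lie 157.8, 201.5 and 327.1 kb away on the same side. On the far side, *Sik1* (31844250 to 31855804, minus strand) lies 162.5 kb away, *Hsf2bp* (31944769 to 32036349, minus strand) 263.0 kb away and *Rrp1b* (32036100 to 32062865, plus strand) 354.4 kb away. *Hsf2bp* and *Rrp1b* overlap head to head, and reads from the overlap cannot be assigned without strand, whose setting in the counting is not stated.

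The upstream sequences of *U2af1* and *Cbs* are shown because these are the pair closest to the edited gene and each had libraries of 1 *Cryaa*-line group wholly apart from another. They are RefSeq sequences of GRCm38.p6, and 6 of the 9 genes had an entry. Each is written 5′ to 3′ on the minus strand, with matches to CCAAT or GGGCGG on either strand in capitals, and reaches from 250 bases before the annotated start to the first base that any annotated exon covers.

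*U2af1* (chr17:31658893-31659014): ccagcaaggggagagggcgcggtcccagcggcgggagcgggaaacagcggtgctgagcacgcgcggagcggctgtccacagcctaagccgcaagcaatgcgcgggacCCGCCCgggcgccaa

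*Cbs* (chr17:31637239-31637455): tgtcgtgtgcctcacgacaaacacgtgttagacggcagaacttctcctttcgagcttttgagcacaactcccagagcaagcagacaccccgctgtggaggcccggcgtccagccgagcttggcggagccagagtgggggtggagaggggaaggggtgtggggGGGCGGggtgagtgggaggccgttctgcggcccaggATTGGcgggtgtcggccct

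The *Cbs* stretch of 217 bases held 1 GGGCGG and 1 CCAAT, the latter on the other strand. Among 32851 promoters, the same window held GGGCGG in 28.0% and CCAAT in 30.6%. The *U2af1* stretch of 122 bases held 1 GGGCGG on the other strand and no CCAAT, against shares of 13.1% and 16.5%. Both motifs are common in mouse promoters, and these matches describe the letters only.

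Library totals lay between 14272174 and 29639719 counts. Levels are given as CPM (counts scaled to a common library size) after TMM scaling, whose factors ran from 1.2 to 2.27 in the *Cryaa* line and from 0.488 to 0.774 in the *Cryab* line. Scaling by library totals alone, an alternative used below, moved genes in general. It put the median log2 difference of all genes from WT at 0.21 (het) and 0.41 (homo) in the *Cryaa* line. In the *Cryab* line these medians were 0.21 and 0.37. *Cryaa* alone took 5.37 to 21% of all counts. A pair of libraries stood apart. *Cryaa*-R49C-homo replicate 1 held *Cryaa* at 92960 CPM, against 38260 and 31390 CPM in the other homo libraries and 101300, 103300 and 69970 CPM in WT. *Cryab* WT replicate 1 held the immediate-early gene *Fos* at 859.5 CPM, against 0.467 and 0.297 CPM in the other WT libraries. In the *Cryaa* line *Fos* also varied, at 0.298, 7.396 and 0.456 CPM in WT and 0.191, 27.7 and 9.42 CPM in het libraries. The homo libraries of that line held it at 3.17, 4.715 and 5.32 CPM. The predicted gene *Gm42418* took 2.53 to 42.6% of counts, with 2.53% in that homo replicate 1, 24.5% and 42.6% in the other homo libraries and 20 to 30.1% in WT of the *Cryaa* line. Its part in the values of the neighbours was not tested. The lens fibre markers were present (*Bfsp1*, *Grifin* and 7 more of 10), whereas *Lim2* was listed at 0 in every library. *Cryaa* itself differed between homo and WT lenses by -0.76 on the log2 scale (SE 0.33, FDR = 0.15), and by -1.39 without homo replicate 1, which passed the threshold. It passed in 3 of 13 alternatives, with values from -1.39 to -0.22 and a highest FDR of 0.689. The edit changes a codon, so its level is no check of the labels.

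At 2 days in WT lenses the neighbours ranked from *U2af1* at the top to *Hsf2bp* at the bottom when levels were divided by exon length. *U2af1* reached 2.63 ± 0.33 CPM per kb (SD, n = 3), and on that scale its libraries lay above those of every other neighbour in all 6 groups. In CPM, without division by exon length, *U2af1* (5.85 to 7.46) and *Rrp1b* (5.50 to 7.63) overlapped in these WT lenses. *Wdr4* (0.909 ± 0.087 CPM per kb) and *Rrp1b* (0.889 ± 0.153) overlapped each other, and *Pknox1* followed at 0.569 ± 0.041. *Sik1* (0.356 ± 0.031), *Pde9a* (0.258 ± 0.114) and *Cbs* (0.123 ± 0.047) overlapped their neighbours in this order. *Slc37a1* (0.0347 ± 0.0027) and *Hsf2bp* (0.0287 ± 0.0190) overlapped at the bottom.

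The order was similar in the 14-day WT lenses of the *Cryab* line, where *U2af1* stood at 2.85 ± 0.27 CPM per kb (SD, n = 3). *Wdr4* (0.642 ± 0.297), *Sik1* (0.555 ± 0.383), *Rrp1b* (0.487 ± 0.17) and *Pknox1* (0.455 ± 0.030) followed, each overlapping the next. *Pde9a* was at 0.0898 ± 0.0614 CPM per kb. The levels of all 9 genes in each library are plotted next.

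**Figure D1:**
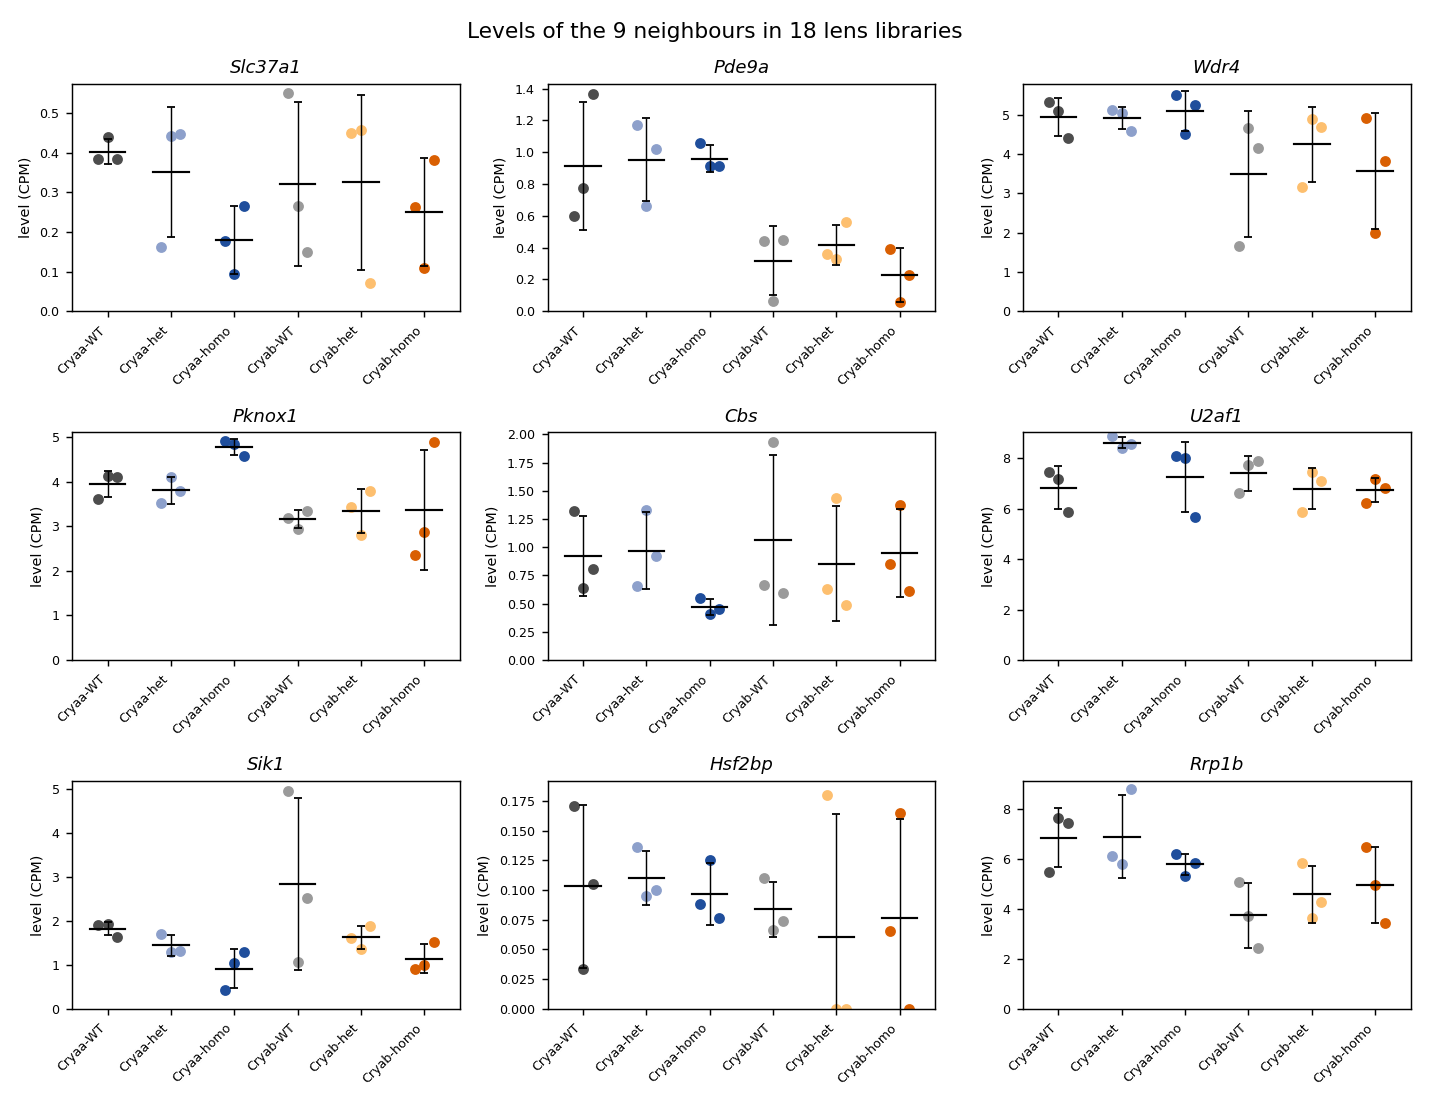
Level of each neighbour of *Cryaa* in CPM (vertical axis, linear from 0) in the 18 libraries, by group; points are libraries, the long bar is the mean and the whiskers are 1 SD over 3 libraries. *Pknox1* in *Cryaa*-R49C-homo (4.56 to 4.91 CPM) sits above all WT libraries of that line (3.62 to 4.12 CPM), and *Cbs* (0.409 to 0.551 CPM) sits below them (0.642 to 1.32 CPM).

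The first question was whether genes beside the edited locus differ in the line in which that locus was edited. In *Cryaa*-R49C-homo compared with WT lenses, 0 of the 8 tested neighbours passed an FDR of 0.05 in edgeR's quasi-likelihood test, while 9.79% of all 13938 genes did. At an unadjusted p under 0.05 there was 1 neighbour, *Sik1*, beside 24.3% of all genes, and DESeq2 and the robust likelihood-ratio test also called 0. The neighbours' median log2 difference was -0.10 and their median size without sign 0.26. The homo libraries lay wholly apart from WT for 4 of the 8, *Slc37a1*, *Cbs* and *Sik1* below and *Pknox1* above, and 24.5% of all genes did so in either direction (12.6% below, 11.9% above).

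In *Cryaa*-R49C-het compared with WT lenses, 0 of 8 neighbours passed the test and 0 had an unadjusted p under 0.05, against 0.00717% and 5.09% of all genes. Log2 differences ran from -0.34 (*Sik1*) to 0.34 (*U2af1*), with a median of 0.00. Only *U2af1* had het libraries wholly above WT, which 9.57% of all genes had. In homo compared with het lenses, 0 of 8 passed the test beside 8.32% of all genes, and *Cbs* was the 1 gene with an unadjusted p under 0.05, a threshold that 23.7% of all genes passed. Homo libraries lay apart from het libraries for 4 of 8, *Pknox1* above and *Cbs*, *U2af1* and *Sik1* below, beside 22% of all genes (11.6% above, 10.5% below). For *Sik1* the nearest homo and het libraries were at 1.293 and 1.296 CPM.

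In the *Cryab* line, where *Cryaa* was not edited, the same genes gave 0 calls of 8 in het lenses (0.00717% of all genes), 0 of 8 in homo lenses (0.0502%) and 0 of 8 in homo compared with het lenses (0%, or 0 of 13938). At an unadjusted p under 0.05 the counts were 0, 1 (*Sik1*, in homo lenses) and 0, beside 3.82%, 6.1% and 1.97% of all genes. No neighbour had libraries of one genotype wholly apart from another, against 10.1%, 9% and 6.86% of all genes. The difference between the lines was tested directly and called 0 of 8 neighbours for the het effect (0% of all genes) and 0 of 8 for the homo effect (2.91%), with 0 unadjusted p under 0.05 in either, against 2.53% and 15.4% of all genes. DESeq2 and the robust likelihood-ratio test called 0 neighbours in each of these comparisons as well. In bulk tissue, fewer cells of a type and less RNA per cell cannot be told apart.

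**Figure D2:**
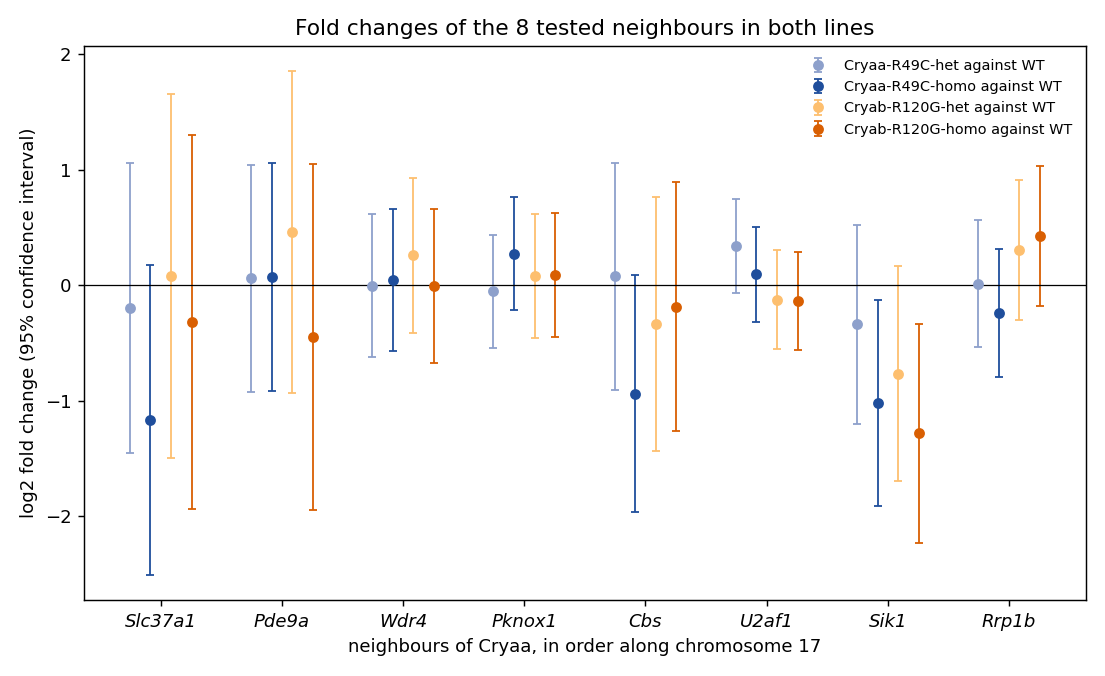
Log2 fold change against WT (vertical axis) of the 8 tested neighbours in order along chromosome 17, with 95% confidence intervals from the edgeR fit, for het and homo lenses of both lines. The intervals that leave out 0 are those of *Sik1* in *Cryaa*-R49C-homo (-1.92 to -0.13) and *Cryab*-R120G-homo (-2.23 to -0.33), and neither passed the FDR threshold.

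*Slc37a1* encodes an antiporter of sugar phosphates in the endoplasmic reticulum membrane. It was the least abundant neighbour that was tested, with 124 counts over all libraries. In the *Cryaa* line it stood at 0.383, 0.439 and 0.385 CPM in WT, at 0.163, 0.443 and 0.449 CPM in het and at 0.176, 0.0943 and 0.266 CPM in homo libraries. The homo libraries, which held 3 to 8 counts each, lay below all WT libraries. The log2 difference was -1.17 (SE 0.65, 95% interval -2.51 to 0.17, FDR = 0.281), an interval that holds both a large fall and no fall at this depth.

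At 14 days *Slc37a1* ranged from 0.0701 to 0.551 CPM with no order by genotype, and the homo difference was -0.32 (SE 0.78). The homo effects of the lines differed by -0.85 (SE 1.01, 95% interval -2.95 to 1.25). Single libraries moved both values: without *Cryab* WT replicate 1 they were 0.21 and -1.38, and without *Cryab* homo replicate 3 they were -0.72 and -0.45.

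*Pde9a* encodes a phosphodiesterase with high affinity for cyclic GMP. Its levels in the *Cryaa* line were 0.596, 0.777 and 1.37 CPM in WT, 1.17, 0.664 and 1.02 CPM in het and 1.06, 0.912 and 0.913 CPM in homo libraries. The 3 genotypes overlapped, with a homo difference of 0.07 (SE 0.48, 95% interval -0.92 to 1.06) that was -0.15 without WT replicate 1 and 0.48 without WT replicate 3. At 14 days in the *Cryab* line every library lay between 0.0550 and 0.561 CPM, below every 2-day library, a gap in which line and age cannot be told apart. Those 14-day libraries held only 1 to 8 counts of *Pde9a* each. The *Cryab*-R120G-homo difference was -0.45 (SE 0.72), and single libraries moved it from -1.17 (without homo replicate 1) to 0.06 (without homo replicate 2).

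*Wdr4* encodes the partner of Mettl1 in the enzyme that methylates guanosine in tRNA. It was at 5.33, 5.10 and 4.42 CPM in WT, 5.12, 5.06 and 4.59 CPM in het and 5.51, 4.53 and 5.25 CPM in homo libraries of the *Cryaa* line. Its homo difference was the smallest of the 8 in the TMM-scaled fit, 0.04 (SE 0.30, 95% interval -0.57 to 0.66), and 0.48 with libraries scaled by totals. Among the *Cryab* libraries a WT library at 1.65 CPM and a homo library at 1.98 CPM stood below the others, which lay between 3.16 and 4.91 CPM, and the homo difference was -0.01 (SE 0.32), with values from -0.32 (without homo replicate 1) to 0.39 (libraries scaled by totals) over the alternatives.

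*Pknox1* encodes a homeodomain factor of the TALE class that pairs with Pbx proteins on DNA. Its 3 *Cryaa*-R49C-homo libraries, at 4.91, 4.84 and 4.56 CPM, were the highest of that line, above WT (3.62, 4.12 and 4.10 CPM) and het libraries (3.51, 4.11 and 3.79 CPM). The homo difference was 0.27 (SE 0.24, 95% interval -0.22 to 0.76, FDR = 0.533), and 0.68 (FDR = 0.109) with libraries scaled by their totals alone. *Cryab*-R120G-homo lenses had 2.36, 2.86 and 4.89 CPM around a WT range of 2.94 to 3.34 CPM, and their difference was 0.09 (SE 0.26). It was -0.27 without homo replicate 3, the library at 4.89 CPM, and 0.42 with libraries scaled by totals.

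*Cbs* encodes cystathionine beta-synthase, which joins homocysteine and serine at the entry to transsulfuration. WT libraries of the *Cryaa* line held 1.32, 0.642 and 0.806 CPM and het libraries 0.654, 1.33 and 0.922 CPM. The homo libraries were the lowest of the line, at 0.551, 0.409 and 0.456 CPM, and overlapped neither other genotype. The homo difference from WT was -0.94 (SE 0.50, 95% interval -1.97 to 0.09, FDR = 0.255), a fold of 0.522. Without WT replicate 1, the highest of the WT libraries, it was -0.60 (FDR = 0.607).

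Compared with het lenses the *Cbs* difference in homo lenses was -1.01 (SE 0.49, unadjusted p = 0.0497, FDR = 0.210). The *Cryab* line did not show this order: its WT (0.661, 1.94 and 0.594 CPM), het (0.631, 1.44 and 0.491 CPM) and homo libraries (0.852, 1.38 and 0.612 CPM) overlapped. Replicate 2 was the highest in each of those genotypes. The homo difference there was -0.19 (SE 0.52), and the lines differed by -0.75 (SE 0.72, 95% interval -2.24 to 0.73). Without *Cryab* WT replicate 2 these values were 0.62 and -1.56, and without *Cryab* homo replicate 2 they were -0.57 and -0.37.

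*U2af1* encodes the small subunit of the factor that recognises the AG at the end of an intron, and it is the gene nearest to *Cryaa* in this set. The het libraries of the *Cryaa* line, at 8.85, 8.41 and 8.58 CPM, were above WT (7.46, 7.16 and 5.85 CPM). The homo libraries did not continue in that direction, at 8.08, 8.02 and 5.67 CPM. The het difference was 0.34 (SE 0.20, 95% interval -0.07 to 0.74, unadjusted p = 0.0999, FDR = 0.836) and the homo difference 0.09 (SE 0.20, 95% interval -0.32 to 0.50).

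With 3136 counts, *U2af1* was the most deeply counted neighbour, and its intervals were the narrowest. Scaling libraries by their totals alone put the medians of all genes at 0.21 (het) and 0.41 (homo) in the *Cryaa* line. The *U2af1* differences were then 0.59 in het and 0.55 in homo lenses, the latter above the upper end of its interval. In the *Cryab* line *U2af1* lay between 5.86 and 7.87 CPM in all libraries, with differences of -0.13 in het and -0.14 in homo lenses. Both took the other sign (0.08 and 0.22) when libraries were scaled by their totals alone. The het effects of the lines differed by 0.46 (SE 0.28, 95% interval -0.13 to 1.05).

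*Sik1* encodes a salt-inducible kinase, a relative of AMPK that holds back the coactivators of CREB and is itself induced through CREB. Its levels in the *Cryaa* line were 1.92, 1.93 and 1.65 CPM in WT, 1.72, 1.30 and 1.32 CPM in het and 0.418, 1.04 and 1.29 CPM in homo libraries. All homo libraries lay below all others of the line, and replicate 1, the library with high *Cryaa*, was the lowest. The gap to het was very small, with homo replicate 3 at 1.293 CPM (34 counts) and het replicate 2 at 1.296 CPM (41 counts). The homo difference was -1.02 (SE 0.43, 95% interval -1.92 to -0.13, unadjusted p = 0.0262, FDR = 0.140), a fold of 0.492. Without homo replicate 1 it was -0.65 (FDR = 0.292).

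*Sik1* was also lower in *Cryab*-R120G-homo lenses, by value and not by the adjusted test. Those libraries held 0.917, 0.99 and 1.53 CPM, het libraries 1.62, 1.37 and 1.89 CPM and WT libraries 4.96, 1.07 and 2.52 CPM, so that homo and WT overlapped. The difference was -1.28 (SE 0.46, 95% interval -2.23 to -0.33, unadjusted p = 0.0103, FDR = 0.618). WT replicate 1, at 4.96 CPM, was the library with high *Fos*. It also held *Fosb* at 96.1 CPM, against 0 in the other WT libraries, and *Nr4a1*, a CREB target, at 21.4 CPM against 0.2 and 0.668.

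Without that library the *Sik1* difference in *Cryab*-R120G-homo lenses was -0.65 (unadjusted p = 0.167, FDR = 0.861). Without WT replicate 2, which held 1.07 CPM, it was -1.70 (FDR = 0.228). The homo effects of the lines on *Sik1* differed by 0.26 (SE 0.63, 95% interval -1.05 to 1.56), an interval that holds differences as large as either effect. That value was -0.38 without *Cryab* WT replicate 1, 0.67 without *Cryab* WT replicate 2 and 0.63 without *Cryaa*-R49C-homo replicate 1, so its sign turned on a single library. The part of the immediate-early response in these values was not tested.

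*Hsf2bp* encodes a protein that binds heat shock factor 2 and, in meiosis, BRCA2. Its counts were 4, 1 and 3 in WT, 5, 3 and 4 in het and 4, 4 and 2 in homo libraries of the *Cryaa* line. *Cryab*-line counts were 1, 1 and 1, then 2, 0 and 0, then 1, 3 and 0 in the same order of genotypes. Fitted with the filter of the study, which kept it, the homo difference in the *Cryaa* line was -0.02 (SE 1.12, 95% interval -2.21 to 2.17), so differences within that wide interval could not be seen at this depth.

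*Rrp1b* encodes a nucleolar protein of ribosome assembly. It was at 5.50, 7.63 and 7.43 CPM in WT, 6.13, 5.79 and 8.80 CPM in het and 6.19, 5.34 and 5.86 CPM in homo libraries of the *Cryaa* line, which overlapped. The homo difference was -0.24 (SE 0.27, 95% interval -0.80 to 0.31), and 0.16 when libraries were scaled by their totals alone. The *Cryab*-R120G-homo libraries (6.49, 4.95 and 3.44 CPM) overlapped WT (5.07, 3.74 and 2.45 CPM), with a difference of 0.42 (SE 0.29, 95% interval -0.18 to 1.03) that ran from 0.19 (without homo replicate 1) to 0.82 (libraries scaled by totals) over the alternatives. Both intervals hold 0. The homo effects of the lines on *Rrp1b* differed by -0.67 (SE 0.39, 95% interval -1.49 to 0.15, FDR = 0.440), from -0.92 without *Cryab* WT replicate 1 to -0.43 without *Cryab* homo replicate 1.

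The 9 genes are part of a wider neighbourhood. Within 1 Mb of *Cryaa*, 46 genes were listed and 21 were tested, and 0 of the 21 passed the test in *Cryaa*-R49C-homo lenses by edgeR's quasi-likelihood test, by DESeq2 or by the robust likelihood-ratio test. Those with an unadjusted p under 0.05 were 2 of 21 (9.52%, against 24.3% of all genes). Their median size of difference without sign was 0.31, against 0.39 over all genes. One was *Sik1* and the other *Ndufv3*, which encodes a subunit of mitochondrial complex I and lies 146.5 kb from *Cryaa*, between *Wdr4* and *Pknox1*. It was named after its values were seen. For the homo effect compared between the lines, *Abcg1*, a lipid transporter gene 559.8 kb from *Cryaa* that was also named after its values were seen, differed by -1.73 (SE 0.68, FDR = 0.211). It passed in 4 of 18 alternatives, which were the filter of the study (-1.71, FDR = 0.0405), the robust likelihood-ratio test, the replicate block and the fit without *Cryab* WT replicate 1 (-2.54).

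*Ndufv3* stood at 72.4, 75.7 and 57.4 CPM in WT and 70.1, 152.7 and 96.7 CPM in homo libraries of the *Cryaa* line. The difference was 0.64 (SE 0.23, FDR = 0.0882), and it passed the threshold with libraries scaled by totals alone (1.07, FDR = 0.00469) and without homo replicate 1 (0.86, FDR = 0.00207). It did not pass in the other 11 of 13 alternatives, and without homo replicate 2, the library at 152.7 CPM, it was 0.28 (FDR = 0.506).

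The same count was made around the other edited locus. Of 19 tested genes within 1 Mb of *Cryab*, 2 (10.5%, against 0.0502% of all genes) passed the test in *Cryab*-R120G-homo lenses, both lower than in WT and both named after their values were seen. *Bco2*, which encodes a carotenoid oxygenase, had 4.63, 7.61 and 6.23 CPM in WT, 1.71, 3.33 and 3.57 CPM in het and 0.655, 0.605 and 0.841 CPM in homo libraries (-3.15, SE 0.47, FDR = 0.00736). *Il18*, which encodes the cytokine interleukin 18, had 9.14, 8.74 and 10.9 CPM in WT, 4.06, 7.11 and 6.66 CPM in het and 3.6, 3.63 and 2.14 CPM in homo libraries (-1.61, SE 0.28, FDR = 0.0348). They lie 196.1 and 169.5 kb from *Cryab*.

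*Bco2* also passed in *Cryaa*-R49C-homo lenses (-2.06, SE 0.45, FDR = 0.00487), where *Cryab* was not edited, so 1 of the 19 (5.26%) was called there, beside 9.79% of all genes. At an unadjusted p under 0.05 there were 7 of the 19 (36.8%), beside 24.3% of all genes. The counts at that p in the edited line were 6 of 19 in homo lenses (31.6%, beside 6.1% of all genes) and 3 of 19 in het lenses (15.8%, beside 3.82%), and 8 of 19 for the homo effect compared between the lines (42.1%, beside 15.4%). The homo effects of the lines on *Bco2* differed by 1.09 (SE 0.66, FDR = 0.453). The *Bco2* call in *Cryaa*-R49C-homo lenses was lost without *Cryaa* WT replicate 2 (-1.35, FDR = 0.0784). The *Bco2* call in *Cryab*-R120G-homo lenses was lost without WT replicate 2 or without any 1 homo library, and that of *Il18* also without WT replicate 3 and with libraries scaled by totals alone. The *Bco2* difference nevertheless stayed between -3.31 and -2.79, and that of *Il18* between -1.73 and -1.22, over all 13 alternatives.

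*Layn*, which encodes layilin, a receptor for hyaluronan, lies 298.0 kb from *Cryab* and was also named after its values were seen. It had 1.32, 1.94 and 1.78 CPM in WT, 2.52, 3.78 and 5.75 CPM in het and 5.24, 6.49 and 6.19 CPM in homo libraries of the *Cryab* line. The homo libraries lay above all WT libraries, and the difference was 1.81 (SE 0.35, FDR = 0.0509), just outside the threshold and opposite in sign to *Bco2* and *Il18*. It passed in 7 of 13 alternatives, among them DESeq2, the replicate block and the filter of the study, and in none that left out a library, with values from 1.68 to 2.16.

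Cell type markers also moved by value in *Cryab*-R120G-homo lenses, where no marker passed the test. The pigment cell list had a median log2 difference of 1.84, with 6 of 9 genes at an unadjusted p under 0.05, beside 6.1% of all genes, and its summed level was 9.47 to 11.8 CPM in WT and 19.4 to 35.0 CPM in homo libraries. The macrophage list had a median of 1.92, with 3 of 10 at that p, and summed levels of 1.13 to 2.64 CPM in WT and 2.37 to 7.80 CPM in homo libraries. Of the vessel and mesenchyme list, 3 of 9 had such a p (median 0.55). The medians were 1.34 for inner retina and glia, 1.11 for photoreceptors and 0.96 for erythroid cells, with 0 genes at that p in each, and -0.26 (1 of 9) for lens fibres and -0.25 (0 of 7) for lens epithelium. In *Cryab*-R120G-het lenses no marker passed either. At that p stood 7 of 9 pigment (median 2.27), 5 of 5 erythroid (median 2.30) and 3 of 9 vessel and mesenchyme markers (median 0.67), beside 3.82% of all genes. The other lists held none. The part of these lists in the values of *Bco2*, *Il18* and *Layn* was not tested.

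**Figure D3:**
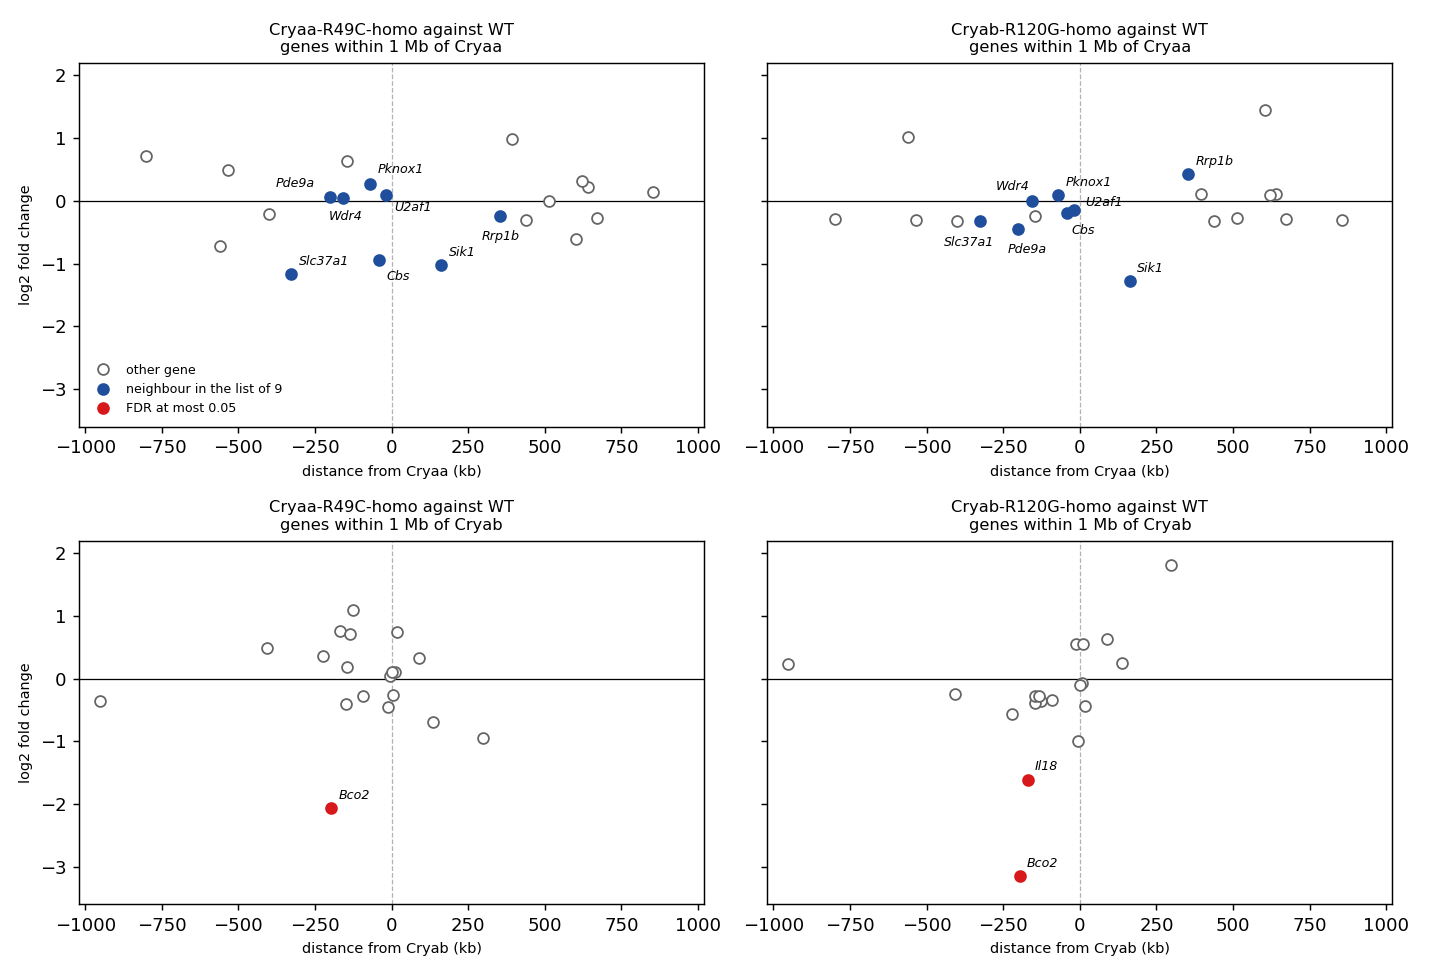
Log2 fold change of homo against WT (vertical axis) of each tested gene by distance in kb from *Cryaa* (upper panels) or *Cryab* (lower panels), in the *Cryaa* line (left) and the *Cryab* line (right); filled blue points are the listed neighbours and red points passed an FDR of 0.05. No point passed around *Cryaa* in either line, *Bco2* passed around *Cryab* in both lines and *Il18* in the *Cryab* line alone.

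Along the rest of chromosome 17, the share of genes that passed the test in *Cryaa*-R49C-homo lenses had no steady order by distance. It was 0% of 21 genes within 1 Mb, 9.2% of 174 from 1 to 5 Mb, 19% of 126 from 5 to 10 Mb, 6.61% of 121 from 10 to 20 Mb and 12.7% of 212 beyond that. On the other chromosomes it was 9.7% of 13283. Over all of chromosome 17, 75 of 655 tested genes (11.5%) passed, the third highest share of 20 chromosomes, whose shares ran from 6.86% to 12.8%.

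**Figure D4:**
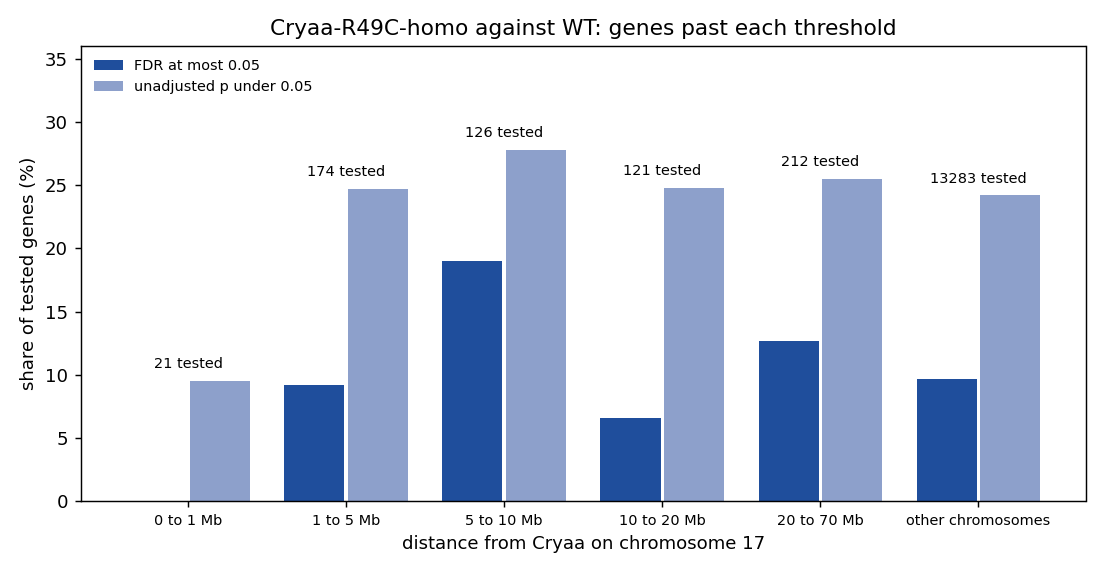
Share of tested genes (vertical axis, percent) past an FDR of 0.05 and past an unadjusted p of 0.05 in *Cryaa*-R49C-homo against WT, by distance from *Cryaa* along chromosome 17 and for the other chromosomes; the number of genes tested stands above each pair of bars. The bin nearest *Cryaa* holds 0 of 21 genes past the FDR threshold, and the bin from 5 to 10 Mb holds 24 of 126.

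In *Cryaa*-R49C-het lenses the single gene of the genome that passed the test lies on chromosome 17, 12.51 Mb beyond *Cryaa*. It was *Clic5*, which encodes a chloride intracellular channel protein (44188584 to 44280172). It fell from 6.22, 8.68 and 6.48 CPM in WT to 1.58, 3.51 and 1.5 CPM in het libraries (-1.71, SE 0.27, FDR = 0.0240) and to 0.154, 0.157 and 0.152 CPM in homo libraries (-5.48, SE 0.36, FDR = 8.946e-10). The groups formed 3 steps with no overlap. The het call held without het replicate 2 and was lost without any other library of the comparison and with the *Cryaa* line alone, while the value stayed between -2.21 and -1.49. The homo call held in all 13 alternatives. In the *Cryab* line *Clic5* lay between 92.6 and 118.3 CPM in every library.

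With all genes that had a count in any library, the filter of the study, 17 genes passed in het lenses, and 2 of them (11.8%, against 4.52% of the genes tested) were on chromosome 17. The second was *Dynlt1b*, a dynein light chain gene 25.24 Mb from *Cryaa* (6430112 to 6436296) with near-identical copies beside it, which makes its counts uncertain. It had 2.51, 1.42 and 1.30 CPM in WT, 4.30, 7.53 and 8.0 CPM in het and 8.37, 3.46 and 4.11 CPM in homo libraries. Its het difference was 1.93 (SE 0.41), with an FDR of 0.569 among the 13938 genes and 3.876e-06 with the wider filter. In homo lenses it rose by 1.62 (SE 0.41, FDR = 0.0143), a call lost without WT replicate 2, WT replicate 3 or homo replicate 1. Its difference in *Cryab*-R120G-homo lenses was 1.18 (SE 0.43, unadjusted p = 0.0118, FDR = 0.650), from 4.13, 9.68 and 3.21 CPM in homo and 2.53, 3.00 and 2.00 CPM in WT libraries. It passed in 1 of 13 alternatives, the wider filter (FDR = 0.0246), and was 0.55 without homo replicate 2, the highest library.

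The partners of the neighbours were followed in 8 lists by role. In *Cryaa*-R49C-homo lenses 4 of the lists held 1 gene each that passed the test, and the other 4 held none. A single gene of 7 to 10 tested is close to the 9.79% of all genes that passed, so the counts say nothing particular about the lists. Those with no call were the splicing partners of *U2af1* (0 of 9, median 0.11), the TALE partners of *Pknox1* (0 of 9, median 0.00), the tRNA methylation and nucleolar partners of *Wdr4* and *Rrp1b* (0 of 10, median 0.15) and the family of *Slc37a1* (0 of 3, median 0.15). Their counts at an unadjusted p under 0.05 were 2, 2, 4 and 0, beside 24.3% of all genes. In het lenses of the *Cryaa* line and in *Cryab*-R120G-homo lenses no gene of any list passed.

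Beside *Cbs*, 1 of 8 tested genes of transsulfuration and the methionine cycle passed, *Cth*, and the list's median was 0.20. *Cth* encodes cystathionine gamma-lyase, the enzyme that follows Cbs in the pathway. It rose from 0.213, 0.236 and 0.666 CPM in WT to 5.07, 3.30 and 3.19 CPM in homo libraries, a fold of 10.2 (log2 3.34, SE 0.52, FDR = 0.000172), with het libraries at 0.872, 0.601 and 0.623 CPM. The pair of consecutive enzymes thus had values on opposite sides of WT, of which the rise of *Cth* alone passed the test. The homo effect on *Cth* differed between the lines by 2.32 (FDR = 0.234).

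Beside *Sik1*, 1 of 10 salt-inducible kinase partners and CREB targets passed, its relative *Sik3*, with a list median of -0.12. *Sik3* fell from 6.14, 6.89 and 6.48 CPM in WT to 2.69, 3.33 and 3.88 CPM in homo libraries (-0.98, SE 0.26, FDR = 0.0159). The het libraries, at 4.41, 3.19 and 2.97 CPM, were below WT as well (-0.88, FDR = 0.836). The *Sik3* call was lost without WT replicate 2 and with libraries scaled by totals alone (-0.59).

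Beside *Pde9a*, 1 of 10 genes of cyclic GMP synthesis and breakdown passed, *Pde2a*, with a list median of -0.03. *Pde2a* encodes a phosphodiesterase that cyclic GMP stimulates. It fell from 8.95, 7.57 and 5.01 CPM in WT to 2.51, 3.02 and 4.34 CPM in homo libraries (-1.13, SE 0.28, FDR = 0.0123), and this homo effect differed from that in the *Cryab* line (0.88) by -2.01 (SE 0.46, FDR = 0.0168). The call against WT was lost without WT replicate 1 or homo replicate 2 and with libraries scaled by totals alone (-0.69).

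Beside *Hsf2bp*, 1 of 7 tested heat shock factor and BRCA2 partners passed, *Hsf4*, the heat shock factor of the lens, with a list median of -0.41. It fell from 62.9, 69.4 and 43.1 CPM in WT to 35.7, 30.3 and 39.3 CPM in homo libraries (-0.74, SE 0.22, FDR = 0.0333). The call was lost without WT replicate 1, WT replicate 2 or homo replicate 2, with the filter of the study, with the *Cryaa* line alone and with libraries scaled by totals alone (-0.27).

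**Figure D5:**
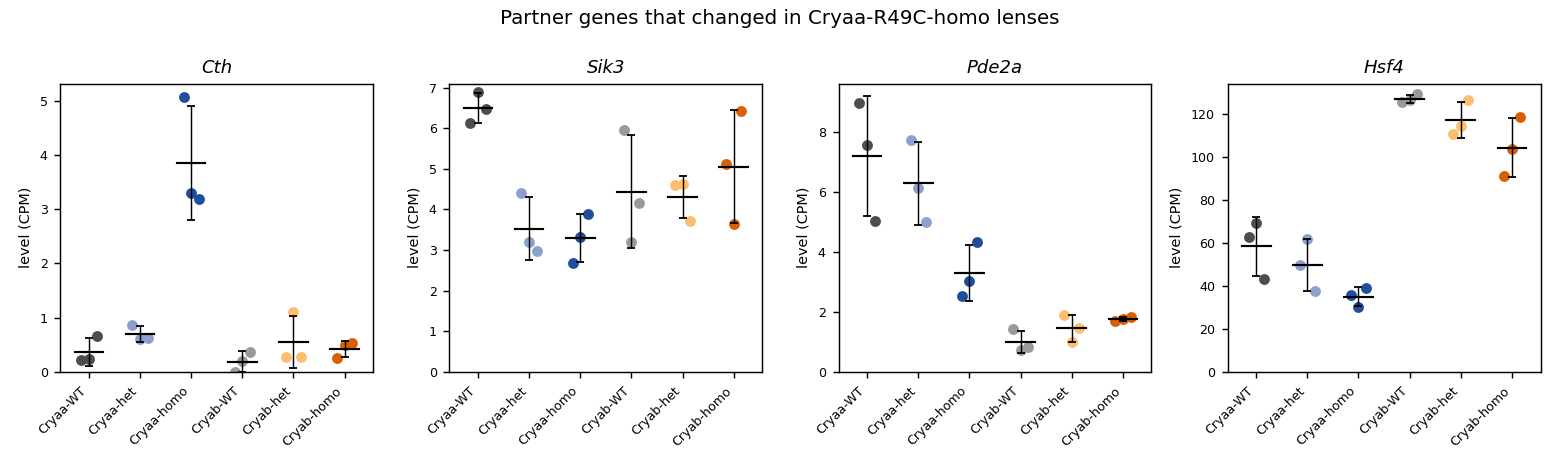
Level in CPM (vertical axes, linear from 0) of the 4 partner genes that passed an FDR of 0.05 in *Cryaa*-R49C-homo lenses, in all 18 libraries; points are libraries, the long bar is the mean and the whiskers are 1 SD over 3 libraries. *Cth* is at 3.19 to 5.07 CPM in the *Cryaa*-R49C-homo libraries and at 0.213 to 0.666 CPM in the WT libraries of that line.

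Cell type markers changed in the same lenses in which *Cth* rose and *Sik3*, *Pde2a* and *Hsf4* fell. In *Cryaa*-R49C-homo compared with WT, 6 of 9 tested lens fibre markers fell (among them *Bfsp1*, *Lgsn* and *Grifin*, list median -1.31), and the summed list went from 5305 to 8886 CPM in WT to 2461 to 3486 CPM in homo libraries. Of 10 macrophage markers, 2 rose (*Aif1* and *C1qa*), and the summed list went from 8.44 to 21.4 CPM to 23.0 to 44.2 CPM. Among lens epithelium markers 1 of 7 fell, *Gja1*, and among pigment cell markers 2 of 9, *Pmel* and *Mlana*. Of 9 vessel and mesenchyme markers, *Cdh5* and *Rgs5* rose and *Col1a2* fell. No marker of photoreceptors (10 tested), inner retina and glia (10) or erythroid cells (5) passed the test, with 0, 1 and 0 at an unadjusted p under 0.05. At that p stood 8 of 9 fibre, 8 of 10 macrophage, 5 of 7 epithelium, 4 of 9 pigment and 5 of 9 vessel and mesenchyme markers. Over all genes, 9.79% passed the test and 24.3% had an unadjusted p under 0.05. The part of these markers in the values of the neighbours was not tested.

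The 14-day lenses of the *Cryab* line carried more fibre marker RNA, 33920 to 64040 CPM summed. Photoreceptor marker RNA lay between 22.4 and 1258 CPM, a range that overlaps the 10.2 to 52.2 CPM of the 2-day lenses. Lists that were lower at 14 days, as *Pde9a* was, were those of macrophages (1.13 to 7.80 CPM against 8.44 to 44.2 CPM) and of vessels and mesenchyme (17.6 to 32.8 CPM against 42.6 to 170.1 CPM). The part of any of these in the gap between the lines in *Pde9a* was not tested.

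Over the 18 libraries, among genes other than the neighbours, the one whose log2 CPM followed each neighbour most closely never lay on chromosome 17. That chromosome held 655 of the 13938 tested genes (4.7%), so picks from elsewhere are likely by number alone. The highest likeness was that of *Rrp1b* to *Bzw2* (Pearson r 0.919 over 18 libraries, 0.79 within the *Cryaa* line and 0.941 within the *Cryab* line). *Sik1* was most like *Mapk8ip1* (0.89, and 0.9 in each line), *Pknox1* most like *Ccm2l* (0.892, 0.66 and 0.901) and *Pde9a* most like *Pola2* (0.908, 0.516 and 0.811). *Wdr4* was most like *Jrk* (0.857), but within the *Cryaa* line, where *Wdr4* hardly varied, r was -0.445.

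*U2af1* was most like 1700028J19Rik (0.754), *Slc37a1* most like *Atf2* (0.746) and *Cbs* most like 1110002L01Rik (0.739). The libraries share their line, age and scaling. The genes were also picked as the highest of 13938, neighbours aside, so these values describe the libraries only.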

How the data were processed

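The authors aligned single 50-base reads to GRCm38 with STAR 2.0.4b (base calling with CASAVA 1.8, per the labels) and counted uniquely aligned, unambiguous reads per gene with featureCounts 1.4.5. The deposited counts were used unscaled. They had 41422 lines for 40800 identifiers, of which 1 line per identifier was kept. Tables of CPM, length-scaled and log2 values, also deposited, derive from these reads and stayed unused. Positions and exon lengths came from GENCODE vM21 (40254 identifiers matched).

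Genes kept by filterByExpr (13938) were scaled with TMM and fitted with edgeR 4.0.16 in R 4.3.3 as 1 quasi-likelihood model with robust dispersions over 6 groups. FDR is the Benjamini-Hochberg value over all tested genes, and log2 CPM had a prior count of 2. The method was tested on simulated data.

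The neighbours, the partner and marker lists and the tests were chosen with earlier results of these data known. The naming rule took genes past the threshold against WT within 1 Mb of *Cryaa* (at most 5, of which there were none), on chromosome 17 in het lenses (at most 5, under either filter), up to 2 per partner list in *Cryaa*-R49C-homo, and the gene most like each neighbour. *Ndufv3*, *Abcg1*, the genes near *Cryab*, the markers and *Gm42418* were named outside that rule, after their values were seen. Alternatives were the filter of the study (26547 genes), library size alone, RLE scaling, DESeq2 1.42.0, a robust likelihood-ratio test, 1 line at a time, a replicate block and leaving out each library. The strand setting of the counting is not stated.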

Additional observations from a re-analysis of the deposited data

Results flagged for a closer look

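Among the named genes that are no neighbours of *Cryaa*, 8 had homo effects that differed between the lines by edgeR's quasi-likelihood test of the difference, taken as the *Cryaa* line minus the *Cryab* line. Over all genes, 406 of 13938 (2.91%) did so. The named genes were chosen from values of the same libraries, so their choice favours such a difference. The difference was -5.48 on the log2 scale for *Clic5* (SE 0.44, FDR = 4.996e-08), -2.01 for *Pde2a* (SE 0.46, FDR = 0.0168), -2.75 for *Layn* (SE 0.48, FDR = 0.00174) and 2.36 for *Il18* (SE 0.39, FDR = 0.00103). Among the named markers it was -1.83 for *Bfsp1* (FDR = 0.0344) and -2.01 for *Lgsn* (FDR = 0.00921) of lens fibres, -1.89 for *Gja1* of the lens epithelium (FDR = 0.00797) and -3.73 for *Pmel* of pigment cells (FDR = 0.00469). Line and age cannot be told apart in any of them. Leaving out each library in turn kept the *Il18* and *Layn* differences past the threshold, and the *Pde2a* difference lost it without *Cryaa* WT replicate 1 or without *Cryab* WT replicate 2 or 3, with values from -2.32 to -1.82 over 18 alternatives and a highest FDR of 0.0603. In *Cryaa*-R49C-homo against WT, *Layn* was at -0.94 (SE 0.33, FDR = 0.0724) and *Il18* at 0.75 (SE 0.27, FDR = 0.0806). Both signs are opposite to those in *Cryab*-R120G-homo lenses.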

How the results depend on the processing

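No neighbour passed the FDR threshold in any of 912 recomputed values of 64 fold changes. The lowest FDR was 0.0641 (*Sik1* in *Cryaa*-R49C-homo, robust likelihood-ratio test), and 92 values had the other sign. For *Cryaa*-R49C-homo against WT, the genes called within 1 Mb of *Cryaa* went from 0 to 1 with library size alone (*Ndufv3*) and 0 to 1 over the fits that left out 1 library (1 without homo replicate 1). Calls on chromosome 17 went from 75 to 116 with library size alone, 153 with the robust likelihood-ratio test, and 42 to 150 leaving out 1 library (42 without WT replicate 1, 43 without WT replicate 2, 49 without homo replicate 2, 150 without homo replicate 1). Over all genes the 1364 calls became 2138 with library size alone, 2887 with the robust likelihood-ratio test, 746 without WT replicate 1 and 3085 without homo replicate 1.

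For *Cryaa*-R49C-het the call on chromosome 17 became 2 with the filter of the study, 4 with the robust likelihood-ratio test, 2 with DESeq2, 0 with only the *Cryaa* line and 0 to 1 leaving out 1 library (0 without any 1 WT library, het replicate 1 or het replicate 3). For *Cryab*-R120G-het it went from 0 to 3 with the filter of the study and 2 with the robust likelihood-ratio test. For *Cryab*-R120G-homo it went from 0 to 12 and 9 with the same settings, 1 with the replicate block and 0 to 1 leaving out 1 library (1 without WT replicate 1). With the filter of the study, calls over all genes were 17 in place of 1, 140 in place of 1 and 302 in place of 7 in these 3 comparisons. With the robust likelihood-ratio test they were 15, 46 and 257. DESeq2 called 2 of all genes in *Cryaa*-R49C-het, and the replicate block 18 in *Cryab*-R120G-homo. The prior degrees of freedom, which set how strongly the spread of each gene is drawn towards a common trend, were 10.2 in the main fit. Earlier results of these data gave an infinite value with the filter of the study. The part of this in the calls was not tested. Library size alone moved the median log2 difference of all genes to 0.21 and 0.41 (het and homo, *Cryaa* line) and 0.21 and 0.37 (*Cryab* line).

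Samples with the same number deviated together in every pair, taken as r over 0.1, only for *Cryab*-R120G-homo against WT (r 0.277, 0.176 and 0.156). For *Cryaa*-R49C-homo against WT r was 0.044, 0.162 and 0.153. Elsewhere r ran from -0.283 to 0.481. The replicate block gave -0.94 for *Cbs* (FDR = 0.159) and -1.06 for *Sik1* (FDR = 0.119) in *Cryaa*-R49C-homo. In *Cryab*-R120G-homo it gave -0.10 for *Cbs* (FDR = 0.991) and -1.16 for *Sik1* (FDR = 0.541), with 18 of all genes called in place of 7. It changed no call of a neighbour. Depth limited *Hsf2bp* and *Slc37a1* most, and *Pde9a* in the *Cryab* line. The values of named genes that are no neighbours under these settings were added after seeing the data.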
